A study of Mus musculus with 4 samples.

Results

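The endoplasmic reticulum (ER) stress and protein folding genes of mouse bone marrow-derived macrophages were examined as a set of 34 genes. They were taken by gene symbol from the deposited count tables, and all 34 were found among the 18256 genes listed. By role they are 12 ER chaperones and folding enzymes, 7 genes of ER-associated degradation, 3 genes of protein translocation into the ER, 5 stress sensors and transcription factors, and 7 genes of the ATF4 type. The first 3 of these roles, 22 genes in all, are called chaperone-type here.

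All samples came from bone marrow of wild-type mice, grown into macrophages over 7 days in 20 ng/ml of the growth factor MCSF, with fresh medium every 48 h. The M0 group stayed unstimulated. The M1 group received 20 ng/ml interferon-γ together with 100 ng/ml of the bacterial product lipopolysaccharide (LPS) from day 6, for 24 h. Whether MCSF was still present in that medium is not stated. Each group has 2 libraries of total RNA depleted of ribosomal RNA. The labels give no strain, sex or age, and nothing ties the libraries of a group to different animals or dishes. The p-values therefore measure the spread between these libraries, and that spread may be only technical.

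The ER folds proteins that enter the secretory pathway, and unfolded protein in its lumen is sensed by IRE1 (Ern1), PERK (Eif2ak3) and ATF6. IRE1 splices the Xbp1 mRNA into the form that encodes an active transcription factor, and ATF6 is cut in the Golgi to release another; both act on genes for chaperones, degradation and translocation. PERK phosphorylates the translation factor eIF2, which lowers protein synthesis in general while favouring translation of Atf4, and ATF4 acts on genes of amino acid supply and of the stress response. XBP1 splicing, ATF6 cleavage, eIF2 phosphorylation and ATF4 translation are not read by counts of reads per gene.

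The libraries held between 15921466 and 18987705 counts on genes, and 12966 genes passed the filter on low counts. Levels are CPM (counts scaled to a common library size) after scaling by edgeR's TMM method, and at these depths 3 counts correspond to 0.144 to 0.185 CPM. Changes are log2 fold changes of M1 over M0 with their standard error (SE), from edgeR's quasi-likelihood test with p-values adjusted by Benjamini-Hochberg over every tested gene. A gene is said to have risen or fallen where its adjusted p was under 0.05. The macrophage markers Csf1r and Lyz2 were high in all libraries, and the 10 M1 activation markers all rose, from a summed 64.3 and 86.6 CPM in the M0 libraries to 8247.7 and 8306.7 CPM in the M1 libraries.

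Of the 33 members that were tested, 22 rose, 1 fell and 10 did not pass the test. Among all tested genes 24.2% rose and 24% fell. The median log2 fold change was 0.43 over the tested members and -0.02 over all tested genes. Both M1 libraries lay above both M0 libraries for 24 members, below them for 4, and overlapped for 5; over all tested genes 37% lay above and 38% below. Of the members, 9 rose at least to double their M0 level, beside 9.93% of all tested genes. In bulk RNA, a change in the number of cells that carry a transcript and a change in transcript per cell cannot be told apart. Fewer members rose when either M0 replicate was left out, and fewer of all tested genes rose in those fits as well. With libraries scaled by their totals alone 14 members and 2024 of all tested genes rose. That scaling shifts the median change of all genes by -0.252 (log2).

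The chaperone-type genes and the ATF4-type genes gave different pictures. Among the chaperone-type members 19 of 21 tested rose and none fell in edgeR, with a median log2 fold change of 0.71. None was lower at an unadjusted p under 0.05 in edgeR, and none fell in DESeq2 or limma, where 18 and 19 rose. Among the ATF4-type members 1 of 7 rose and none fell in edgeR, DESeq2 or limma, with a median of -0.14. At an unadjusted p under 0.05, 2 ATF4-type members were higher and 1 was lower. Summed over the members, the chaperone type went from 4448.4 and 4521.8 CPM in M0 to 8205.5 and 7977.1 CPM in M1. The ATF4 type summed to 158.0 and 172.7 CPM in M0 and to 170.1 and 150.7 CPM in M1, so that its groups overlapped. The ATF4-type genes were measured less precisely, with a median SE of 0.24 against 0.10 for the chaperone type. The difference between these lists was not tested as such, since the lists were chosen with results of these data known.

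**Figure D1:**
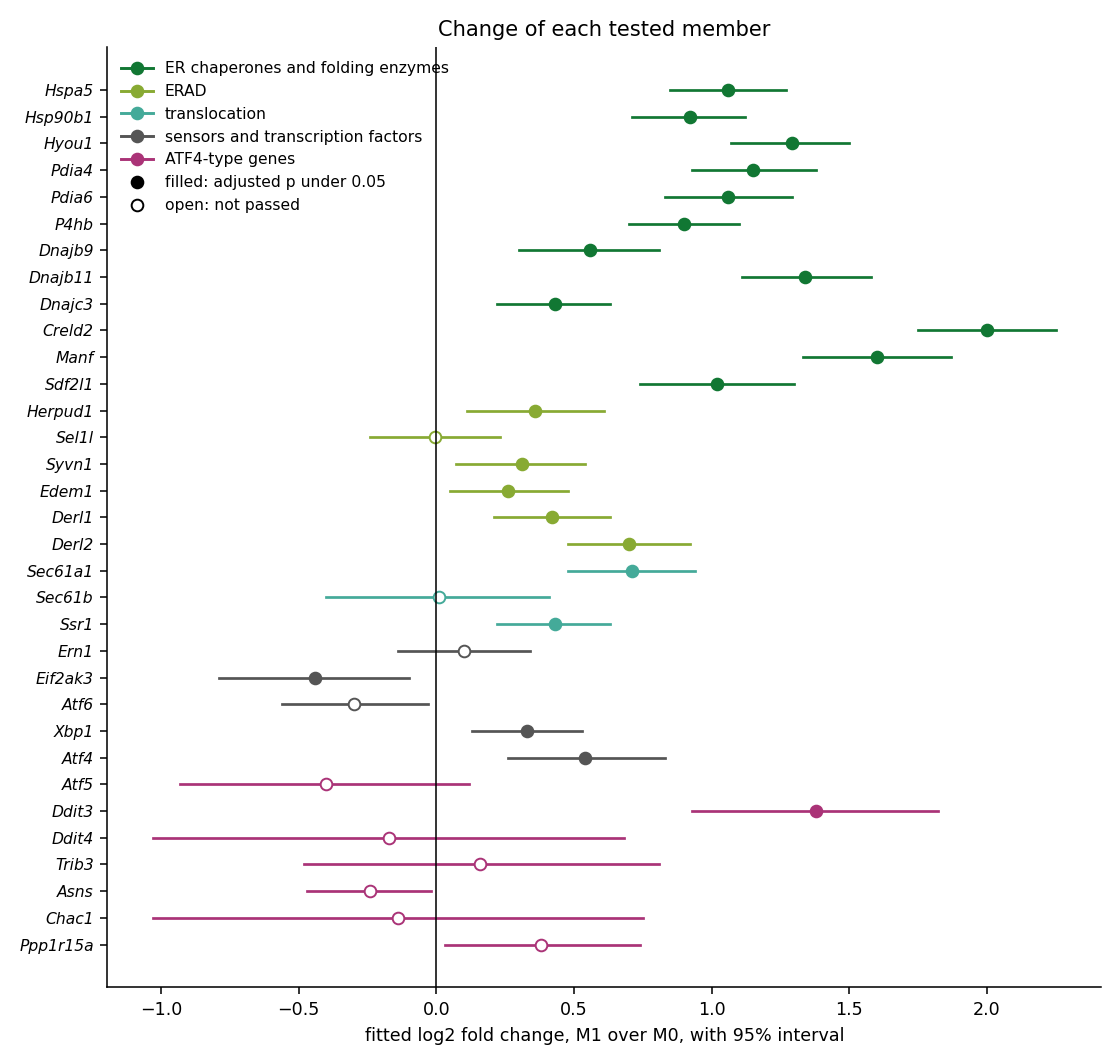
Fitted log2 fold change of M1 over M0 for each of the 33 tested members with its 95% interval, coloured by role; filled circles mark an adjusted p under 0.05. The 12 chaperones and folding enzymes all lie to the right of 0, while 6 of the 7 ATF4-type genes are open circles.

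Some promoters of the chaperone-type genes hold letters that their regulators are known to bind. The ER stress response element (ERSE) is bound by ATF6, and by XBP1, together with NF-Y, and was searched as CCAAT and CCACG with any 9 bases between them, on both strands from 250 bases before to 50 bases after each gene's start (promoter sequences of RefSeq, GRCm38.p6). It was found in 39 of 32851 promoter windows, or 0.119%. The members have 31 windows, for 29 of the 34 genes, and 7 of these windows, or 22.6%, hold an ERSE. All 7 belong to chaperone-type genes, which have 19 windows. The element was chosen for its known link to genes of this kind, so this share is a description and not a test. Whether it has a part in the rise was not tested. The stretches are shown because these letters are the feature that the promoters of several of the rising genes share; capitals mark the CCAAT and CCACG parts, or ATTGG and CGTGG where the match is on the opposite strand, and each is written along the strand of its gene. They lie at chr2:34772020-34772048 on the plus strand for Hspa5, chr15:88819500-88819558 (plus) for Creld2, chr12:17266471-17266529 (plus) for Pdia6, chr14:118937807-118937865 (plus) for Dnajc3, chr19:6046512-6046570 (plus) for Syvn1 and chr10:75893222-75893280 (plus) for Derl3, and at chr10:86705618-86705676 and chr10:86705513-86705571 on the minus strand for the pair of matches of Hsp90b1.
Hspa5: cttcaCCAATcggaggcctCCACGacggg
Creld2: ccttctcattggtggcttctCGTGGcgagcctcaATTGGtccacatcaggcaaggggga
Pdia6: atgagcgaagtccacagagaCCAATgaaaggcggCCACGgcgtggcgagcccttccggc
Dnajc3: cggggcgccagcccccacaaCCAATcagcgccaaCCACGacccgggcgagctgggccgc
Syvn1: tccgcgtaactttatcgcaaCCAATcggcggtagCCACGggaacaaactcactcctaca
Derl3: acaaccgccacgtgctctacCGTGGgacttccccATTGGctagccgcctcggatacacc
Hsp90b1, farther from the start: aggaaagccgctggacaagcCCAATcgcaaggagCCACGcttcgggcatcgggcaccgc
Hsp90b1, nearer to the start: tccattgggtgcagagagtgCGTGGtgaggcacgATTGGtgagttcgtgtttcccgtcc

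The first letter of these matches lies 65 bases before the RefSeq start in Hspa5, 126 in Creld2, 98 in Pdia6, 105 in Dnajc3, 44 in Syvn1, 156 in Derl3, and 212 and 107 in Hsp90b1. The Hspa5 stretch falls inside the gene as GENCODE M21 draws it, whose start lies farther upstream. Of the 7 genes with an ERSE, 6 were tested and all 6 rose, with log2 fold changes from 0.31 (Syvn1) to 2.00 (Creld2) and a median of 0.99. Of the 11 chaperone-type genes whose windows hold no ERSE, 9 rose, with a median of 0.56, so genes without these letters rose as well. Hyou1, Manf, Sec61a1 and Derl1 have no window, so they are in neither set. Their log2 fold changes were 1.29, 1.60, 0.71 and 0.42, so the medians leave out strongly rising genes. The related ERSE-II, ATTGG and CCACG with any 1 base between them, was found in 12 of all windows (0.0365%), among them those of Herpud1 and Dnajb11. Both genes are counted among the 11 without an ERSE. The shorter CCACG, which both of these elements contain, is common, with 32.8% of all windows and 24 of the 31 member windows. The letters TGACGTGG were found in 222 of all windows (0.676%) and in no member window. A match of letters is a description of these windows, and no binding was measured.

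Hspa5 encodes BiP, the abundant Hsp70 chaperone of the ER that also holds the stress sensors inactive; it lies at chr2:34771970-34777547 (GRCm38, GENCODE M21). Its level was 990.6 and 1047.6 CPM in the M0 libraries and 2224.0 and 2037.2 CPM in the M1 libraries. The groups did not overlap, and the gene rose 2.09-fold, with a 95% interval of 1.81 to 2.42 (log2 fold change 1.06 ± 0.10 SE, n = 2 per group, adjusted p = 3.87e-06 by edgeR). Hsp90b1, the Hsp90 chaperone of the ER also called GRP94, stood at 459.4 and 489.6 CPM in M0 and at 897.8 and 894.9 CPM in M1. It rose by 0.92 ± 0.09 on the log2 scale (adjusted p = 1.03e-05, edgeR). Hyou1, a large Hsp70 relative that exchanges nucleotide on BiP, stood at 220.3 and 206.7 CPM in M0 and at 496.7 and 545.6 CPM in M1. Its rise was 1.29 ± 0.10 on the same scale (adjusted p = 1.07e-06, edgeR), and in each of these chaperones the lowest M1 library lay well above the highest M0 library. Where strand was not used in counting, 10.3% of the exons of Hsp90b1 could also hold reads of 1810014B01Rik on the opposite strand.

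The largest change among the tested members was that of Creld2, which encodes an ER-resident protein that can be secreted and lies at chr15:88819646-88826683. It was measured at 26.3 and 26.0 CPM in M0 and at 101.3 and 108.1 CPM in M1. The rise was 2.00 ± 0.11 on the log2 scale, with a 95% interval of 1.75 to 2.25 (adjusted p = 8.37e-08, edgeR). Manf, which encodes a small ER stress-inducible protein that binds BiP and is released from cells, was next. It stood at 38.8 and 46.2 CPM in M0 and at 135.7 and 121.7 CPM in M1, a log2 fold change of 1.60 ± 0.12 (adjusted p = 1.07e-06, edgeR). In both genes the M1 replicates differed from each other far less than from M0. Genes on the opposite strand overlap 8.9% of the exons of Manf.

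BiP works with J-domain partners, and these rose by different amounts. Dnajb11 (ERdj3), a J-domain protein that binds unfolded clients, went from 81.2 and 93.6 CPM to 218.1 and 225.3 CPM, a log2 fold change of 1.34 ± 0.11. Sdf2l1, which forms a complex with ERdj3, went from 53.0 and 59.1 CPM to 125.9 and 101.6 CPM, a log2 fold change of 1.02 ± 0.13. Dnajb9 (ERdj4), which acts on IRE1 and on proteins due for degradation, went from 55.0 and 62.8 CPM to 89.6 and 83.5 CPM, a smaller rise of 0.56 ± 0.11. Dnajc3, known as the kinase inhibitor P58IPK, went from 157.9 and 156.0 CPM to 209.7 and 212.6 CPM, a rise of 0.43 ± 0.09 and the smallest of the 12. For Dnajb11 and Dnajc3, whose 95% intervals of 1.11 to 1.58 and 0.22 to 0.63 do not overlap, the amounts are well separated. Dnajb9 lost its call without M0 replicate 1, and Dnajc3 without either M0 replicate or with libraries scaled by their totals.

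The protein disulfide isomerases form and rearrange disulfide bonds in the ER. Pdia4 stood at 70.0 and 70.7 CPM in M0 and at 149.4 and 163.3 CPM in M1, a log2 fold change of 1.15 ± 0.10. Pdia6 stood at 251.2 and 281.4 CPM in M0 and at 585.0 and 526.4 CPM in M1, a log2 fold change of 1.06 ± 0.10. P4hb, which is also a subunit of collagen prolyl 4-hydroxylase, stood at 660.2 and 639.2 CPM in M0 and at 1214.5 and 1209.5 CPM in M1, a log2 fold change of 0.90 ± 0.09. The intervals of the 3 isomerases overlapped each other. All 12 chaperones and folding enzymes rose, 8 of them at least to double, with a median of 1.06. Before any scaling they made up 0.337% and 0.345% of the counts in the M0 libraries and 0.587% and 0.574% in the M1 libraries. Between 10 and 12 of them rose when 1 library at a time was left out.

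**Figure D2:**
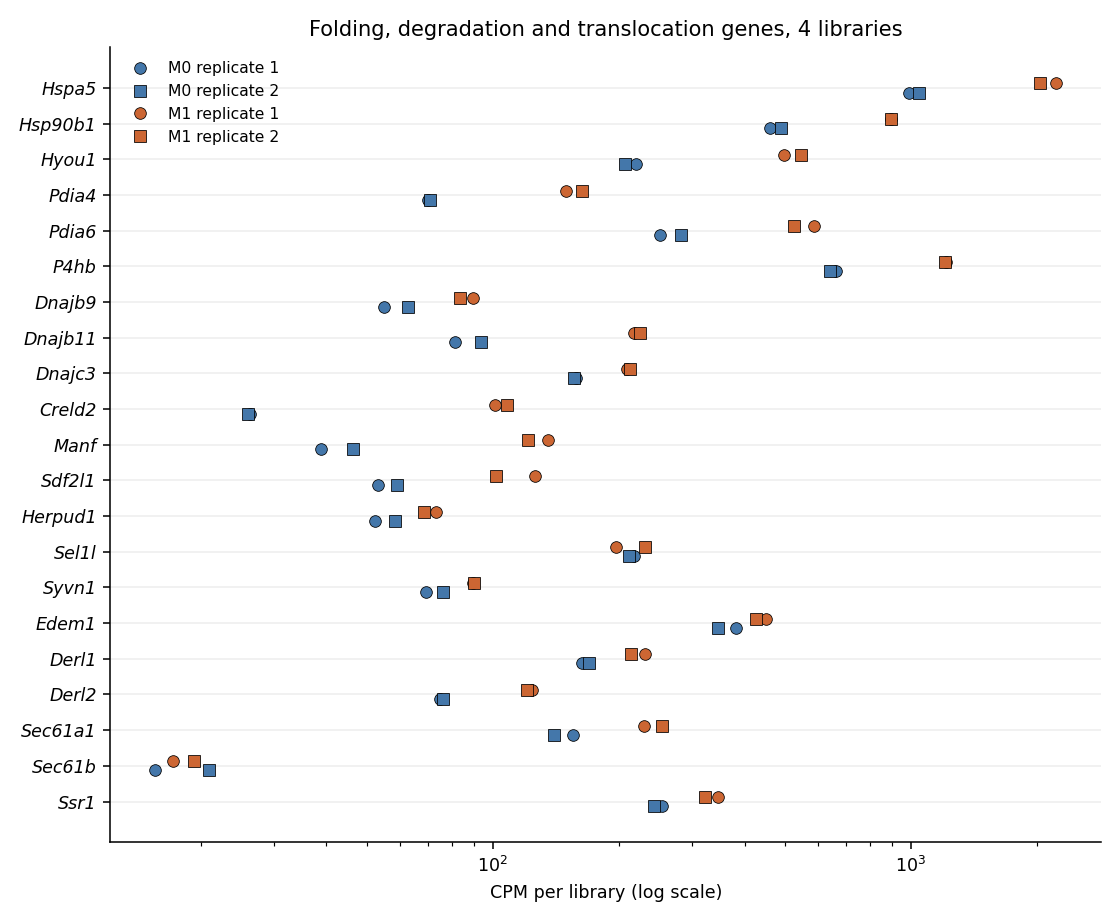
CPM of the 21 tested chaperone-type members in each library, on a log axis, with M0 and M1 libraries in different colours. The M1 points of Creld2, Manf, Hyou1 and Dnajb11 stand well clear of the M0 points, while those of Sel1l and Sec61b overlap them.

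Compared per kilobase of exon, Hspa5 had the highest level of the 34 members in both groups, with 241.0 CPM per kb in M0 and 503.8 CPM per kb in M1. P4hb was next, with 227.1 and 423.6 CPM per kb, followed by Hsp90b1 with 117.7 and 222.3 CPM per kb. The order of these 3 genes was therefore the same in both states. Creld2 moved most in the order, from place 20 in M0 (19.1 CPM per kb) to place 7 in M1 (76.6 CPM per kb). Manf moved from place 25 to place 15. In the other direction, Asns, an ATF4-type gene, moved from place 10 (35.8 CPM per kb) to place 20 (30.3 CPM per kb). Chac1 was last but one in both, with 1.53 CPM per kb in M0 and 1.39 in M1, and Derl3 was last.

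Genes of ER-associated degradation, by which misfolded protein is moved out of the ER and destroyed by the proteasome, also rose in part. Of the 6 tested, 5 rose, with a median log2 fold change of 0.33, and none fell, also at an unadjusted p under 0.05 in edgeR. Derl2, which encodes a derlin of the ER membrane, had the largest change: it went from 74.9 and 76.2 CPM to 124.4 and 121.0 CPM, a log2 fold change of 0.70 ± 0.10 (adjusted p = 1.67e-04, edgeR). Its relative Derl1 went from 163.2 and 170.1 CPM to 231.6 and 213.9 CPM, a log2 fold change of 0.42 ± 0.10. Herpud1, a membrane protein that gathers the degradation machinery, went from 52.2 and 58.4 CPM to 73.1 and 68.6 CPM, a rise of 0.36 ± 0.11.

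The ubiquitin ligase at the centre of this machinery is Syvn1 (HRD1), with Sel1l as its adaptor. Syvn1 went from 69.1 and 76.2 CPM to 89.6 and 90.1 CPM, a log2 fold change of 0.31 ± 0.11 (adjusted p = 0.0344, edgeR). Sel1l stood at 217.9 and 212.2 CPM in M0 and at 197.3 and 231.6 CPM in M1, so its groups overlapped. Its 95% interval, -0.24 to 0.23 on the log2 scale, corresponds to 0.849-fold to 1.17-fold. Edem1, a lectin that hands glycoproteins to this ligase, went from 382.3 and 346.3 CPM to 449.2 and 426.5 CPM, a log2 fold change of 0.26 ± 0.10 (adjusted p = 0.0422, edgeR). Several calls of this role depended on the setting. Herpud1, Syvn1 and Edem1 lost theirs without either M0 replicate, without M1 replicate 1 and with upper-quartile scaling or scaling by library totals, and Syvn1 also in DESeq2 and without M1 replicate 2. Derl1 lost its call without either M0 replicate and with scaling by library totals, so that Derl2 was the 1 gene of the role that rose in those settings. Derl1 shares 20.0% of its transcript with the gene Gm35638, so its reads may be split.

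Derl3, the third derlin, which is known from secretory tissues, was under the filter and was not tested. It had 0 counts in both M0 libraries and 6 and 4 counts in the M1 libraries. With 3 counts over the M0 group put in place of 0, the M1 level would be 3.91-fold higher. That value takes the few M1 counts as exact, so it is not a firm lower bound.

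Herpud1 is the member whose promoter holds both an ERSE-II and the letters of the element through which ATF4 acts, searched as TGATGCAA. These stretches are shown because both kinds of letters stand in 1 window, and Chac1 because it is the ATF4-type member with the same letters. Capitals mark ATTGG and CCACG in the first, and TTGCATCA, which is TGATGCAA on the opposite strand, in the others. They lie on the plus strand at chr8:94386357-94386407 and chr8:94386297-94386344 for Herpud1, and at chr2:119351029-119351076 for Chac1, in GRCm38.p6.
Herpud1, ERSE-II: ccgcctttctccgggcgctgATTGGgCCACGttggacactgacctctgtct
Herpud1, ATF4-type element: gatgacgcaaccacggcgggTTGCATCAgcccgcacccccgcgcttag
Chac1, ATF4-type element: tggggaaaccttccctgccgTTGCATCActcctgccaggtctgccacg

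The ATF4-type letters were found in 294 of all windows, or 0.895%, and Herpud1 and Chac1 were the members that hold them. Only these exact letters within the windows were searched. A member without a match may still hold such an element in other letters or farther from its start. No ATF4-type member had an ERSE in its 8 windows, for 7 genes. The core of the interferon-stimulated response element, GAAA repeated after any 2 bases, was in 1131 windows (3.44%), and Ppp1r15a was the member with a match.

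Translocation genes carry nascent proteins into the ER, and 2 of the 3 rose. Sec61a1, the pore-forming subunit of the translocon, went from 155.3 and 139.9 CPM to 229.5 and 254.5 CPM, a log2 fold change of 0.71 ± 0.10 (adjusted p = 1.85e-04, edgeR). Ssr1, the alpha subunit of the translocon-associated protein complex, went from 254.0 and 242.6 CPM to 345.5 and 321.6 CPM, a log2 fold change of 0.43 ± 0.09 (adjusted p = 0.00347, edgeR), a call lost without either M0 replicate and with scaling by library totals. Sec61b, the small beta subunit of the same pore as Sec61a1, stood at 15.6 and 20.9 CPM in M0 and at 17.2 and 19.3 CPM in M1. Its groups overlapped, and its 95% interval ran from -0.40 to 0.41 on the log2 scale. Sec61b shares 22.8% of its transcript with Gm5870, and Sec61a1 shares 17.4% with Gm44170, so the values of both are uncertain to that extent.

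Of the 5 sensors and transcription factors 2 rose, 1 fell and 2 did not pass the test, with a median log2 fold change of 0.10. Among all tested genes 24.2% rose and 24% fell, and 5 genes are too few to be set apart from these shares. Ern1 (IRE1) stood at 68.7 and 62.1 CPM in M0 and at 69.9 and 70.4 CPM in M1, a log2 fold change of 0.10 with a 95% interval of -0.14 to 0.34 (adjusted p = 0.477, edgeR). Eif2ak3 (PERK) stood at 31.4 and 31.5 CPM in M0 and at 20.3 and 26.0 CPM in M1. It was the 1 member that fell, by 0.44 ± 0.16 on the log2 scale (adjusted p = 0.0355, edgeR), and its M1 replicates lay apart. Gm43292 on the opposite strand overlaps 8.0% of the exons of Eif2ak3. The call was lost in DESeq2, without either M0 replicate and without M1 replicate 1. Atf6 stood at 182.9 and 162.1 CPM in M0 and at 125.4 and 155.4 CPM in M1, with a log2 fold change of -0.30 ± 0.12 that did not pass (adjusted p = 0.0628, edgeR), although both M1 libraries lay below both M0 libraries. Atf6 passed as lower with upper-quartile scaling, with scaling by library totals, without the low-count filter and without M1 replicate 2.

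The transcription factor genes Xbp1 and Atf4 both rose. Xbp1 went from 242.7 and 233.3 CPM to 296.4 and 302.6 CPM, a log2 fold change of 0.33 ± 0.09 (adjusted p = 0.012, edgeR). Atf4 went from 94.9 and 109.2 CPM to 166.1 and 131.0 CPM, a log2 fold change of 0.54 ± 0.13 (adjusted p = 0.00519, edgeR), and its M1 replicates differed more from each other than those of Xbp1. Both calls were lost without either M0 replicate and with scaling by library totals, and that of Xbp1 also with upper-quartile scaling. Spliced and unspliced Xbp1 are counted together in these data.

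Of the ATF4-type genes, Ddit3 was the one that rose. It encodes CHOP, a transcription factor linked to cell death under lasting ER stress, and lies at chr10:127290774-127296288. It was measured at 6.71 and 9.33 CPM in M0 and at 20.9 and 20.7 CPM in M1. The rise was 2.60-fold, with a 95% interval of 1.91 to 3.54 (log2 fold change 1.38 ± 0.20 SE, n = 2 per group, adjusted p = 1.99e-04 by edgeR), and its call held in each of the 12 alternatives. Genes on the opposite strand overlap 4.7% of its exons. GENCODE M21 holds another entry named Ddit3 at the same place, which this overlap leaves out. Whether that entry affected the counts is not known.

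The other ATF4-type genes did not pass the test. Asns, the asparagine synthetase, stood at 97.6 and 98.3 CPM in M0 and at 85.2 and 80.5 CPM in M1; its M1 libraries lay below its M0 libraries, with a log2 fold change of -0.24 ± 0.10 (adjusted p = 0.0728, edgeR). Ppp1r15a, the GADD34 subunit that directs a phosphatase to eIF2, stood at 17.8 and 15.3 CPM in M0 and at 22.2 and 21.0 CPM in M1, with a log2 fold change of 0.38 ± 0.16 (adjusted p = 0.0727, edgeR). These adjusted p-values lie just outside the threshold, and Asns passed as lower with upper-quartile scaling and with scaling by library totals. Atf5, a transcription factor related to ATF4, stood at 24.4 and 37.4 CPM in M0 and at 28.7 and 18.0 CPM in M1, and its replicates overlapped between groups; it passed as lower with scaling by library totals and without M1 replicate 1.

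The lowest members were measured with wide intervals. Ddit4 (REDD1), an inhibitor of the growth kinase complex mTORC1, stood at 2.83 and 5.56 CPM in M0 and at 4.19 and 3.20 CPM in M1. Trib3, a pseudokinase induced through ATF4 and CHOP, stood at 5.94 and 4.52 CPM in M0 and at 6.71 and 5.04 CPM in M1. Both overlapped between the groups. Chac1, which degrades glutathione, stood at 2.64 and 2.38 CPM in M0 and at 2.22 and 2.34 CPM in M1. Its 95% interval ran from 0.489-fold to 1.69-fold, so a change anywhere in that range remains possible. This interval is not the limit of what the test could detect.

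**Figure D3:**
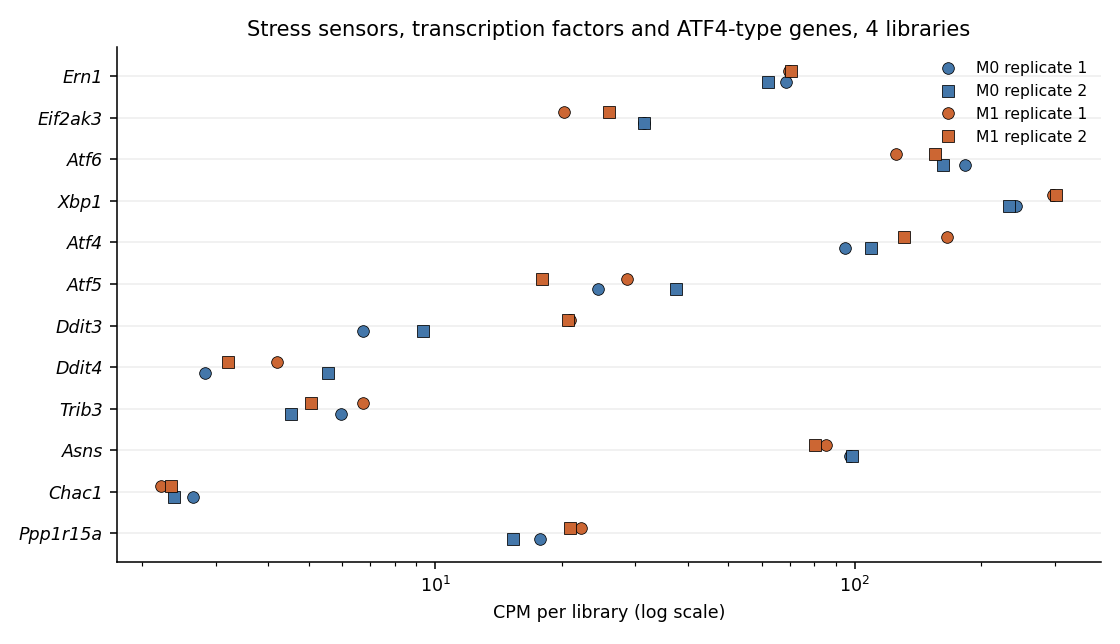
CPM of the sensors, transcription factors and ATF4-type members in each library, on a log axis. The M1 points of Ddit3 stand near 20.9 CPM against 6.71 and 9.33 CPM in M0, while Atf5, Ddit4 and Trib3 overlap between groups.

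Other genes of these pathways, taken from lists that do not hold the members, were read in the same fit. The counts of each list stand beside those of all tested genes, of which 24.2% rose and 24% fell. Of 25 other ER folding and disulfide genes, 18 rose and 1 fell, with a median log2 fold change of 0.44. Calr, the lectin chaperone calreticulin, went from 675.1 and 721.2 CPM to 1488.5 and 1579.9 CPM, a log2 fold change of 1.14 ± 0.09. Fkbp11, an ER prolyl isomerase, had a log2 fold change of 1.34 ± 0.24, Nucb2, a calcium-binding protein, 0.94 ± 0.15, and Ero1a, the oxidase that recharges disulfide isomerases, 0.87 ± 0.10. Its relative Ero1b was the one that fell, by 0.43 ± 0.11, from 72.8 and 82.4 CPM to 58.7 and 56.6 CPM; 21.7% of its transcript is shared with Gm18562. The ERSE letters were in 3 of the 31 windows of this list, those of Calr, Canx and Ero1b. Canx, the membrane-bound partner of calreticulin, rose by 0.35 ± 0.09, so the ERSE-holding genes of this list moved in both directions. Without M0 replicate 1 Fkbp11 lost its call, and without either M0 replicate Ero1b and Canx lost theirs; the count that rose was 8 without M0 replicate 1 and 10 without M0 replicate 2.

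Of 20 other degradation genes 10 rose and 3 fell, with a median of 0.39. Selenos, a selenoprotein that binds derlins, had a log2 fold change of 1.06 ± 0.13. The ATPase that pulls proteins out of the membrane and its cofactors rose together: Vcp by 0.75 ± 0.12, Nploc4 by 0.66 ± 0.09 and Ufd1 by 0.65 ± 0.11. The value of Vcp is uncertain, since 73.0% of its transcript is shared with Vcp-rs. Lower in M1 were Edem3 at -0.71 ± 0.11, a relative of Edem1, Herpud2 at -0.71 ± 0.11, a relative of Herpud1, and the ubiquitin ligase Marchf6 at -0.57 ± 0.10. Edem1 and Herpud1 were higher in M1, so these relatives moved in opposite directions. The count that rose was 4 without either M0 replicate, and Marchf6 lost its call without M0 replicate 1.

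Of 27 tested other genes of translocation, signal peptide removal and oligosaccharide transfer, 17 rose and none fell, also at an unadjusted p under 0.05 in edgeR, with a median of 0.43. Srpr, the receptor for the signal recognition particle, had a log2 fold change of 1.17 ± 0.09, but 42.9% of its transcript is shared with the pseudogene Gm6733. Ssr2, a partner of Ssr1, had a log2 fold change of 1.03 ± 0.10. The oligosaccharyltransferase subunits Ostc and Rpn1 had log2 fold changes of 0.85 ± 0.11 and 0.74 ± 0.10. The count that rose was 8 without either M0 replicate.

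The other ATF4 and amino acid response genes moved in both directions: of 26 tested, 6 rose and 12 fell, with a median of -0.31. Among all tested genes 24.2% rose and 24% fell, so the share of this list that rose was close to that of all genes. Slc7a11, the cystine transporter, had the largest rise, from 29.2 and 30.6 CPM to 202.8 and 242.2 CPM, a log2 fold change of 2.89 ± 0.12. The transcription factor genes Jdp2, Nupr1 and Cebpb had log2 fold changes of 2.31 ± 0.15, 2.07 ± 0.21 and 1.60 ± 0.13; 20.7% of the exons of Cebpb are overlapped on the opposite strand by Tmem189. Gdf15, a secreted stress cytokine, went from 18.8 and 17.3 CPM to 3.75 and 3.44 CPM, a log2 fold change of -2.33 ± 0.21. Cebpg, whose protein pairs with ATF4, went from 123.6 and 130.0 CPM to 52.7 and 57.9 CPM, a log2 fold change of -1.20 ± 0.11. The neutral amino acid transporter Slc1a4 and the alanine aminotransferase Gpt2 had log2 fold changes of -1.79 ± 0.25 and -1.47 ± 0.15.

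The ATF4-type letters were in 7 of the 31 windows of that list, those of Slc7a11, Jdp2, Nupr1, Slc1a4, Atf3, Pycr1 and Vldlr. The first 3 of these rose and Slc1a4 fell. Atf3, a stress transcription factor, had a log2 fold change of -0.93 ± 0.11, and Pycr1, of proline synthesis, -1.88 ± 0.45 (adjusted p = 0.0055, edgeR), which lost its call without M0 replicate 1. Vldlr, a lipoprotein receptor, had a log2 fold change of -1.0 ± 0.52 and did not pass (adjusted p = 0.137, edgeR). Genes with the same letters therefore moved both ways. The count of this list that fell was 6 without M0 replicate 1 and 8 without M0 replicate 2, and the count that rose was 6 whichever library was left out.

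Among 26 regulators of these arms, 12 rose and 4 fell, with a median of 0.30. Eif2ak2 (PKR), the eIF2 kinase that senses double-stranded RNA and is known to be induced by interferon, went from 45.0 and 44.6 CPM to 226.1 and 248.4 CPM, a log2 fold change of 2.40 ± 0.11. Eif2ak4 (GCN2), the eIF2 kinase that senses lack of amino acids, went the other way, with a log2 fold change of -0.89 ± 0.12, and so did Impact, an inhibitor of GCN2, at -0.83 ± 0.11. With PERK, which fell, the eIF2 kinases named here thus moved in both directions. Eif2b3, a subunit of the exchange factor for eIF2, had a log2 fold change of 1.28 ± 0.15. Niban1, a stress-responsive gene, went from 246.2 and 223.6 CPM to 57.6 and 62.5 CPM, a log2 fold change of -1.97 ± 0.11.

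On the IRE1 and ATF6 side, Traf2, an adaptor that binds activated IRE1, had a log2 fold change of 1.98 ± 0.12. Tmbim6, an ER membrane protein that restrains IRE1, went from 614.8 and 627.1 CPM to 1346.6 and 1400.9 CPM, a log2 fold change of 1.15 ± 0.09. Mbtps2, the protease that releases the ATF6 fragment in the Golgi, was lower at -0.44 ± 0.11, but lost its call without either M0 replicate, and Yy2 overlaps 28.4% of its exons on the same strand.

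**Figure D4:**
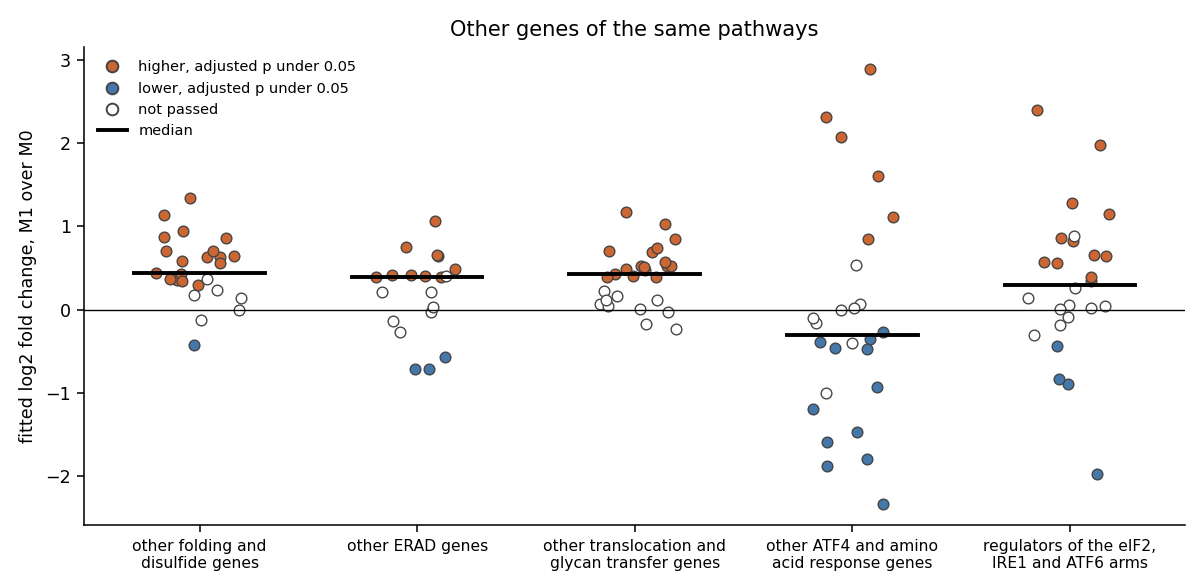
Fitted log2 fold change of M1 over M0 for the genes of the 5 other pathway lists, with 1 point per tested gene and the list's median. The translocation genes lie mostly above 0, while the ATF4 and amino acid response genes spread from -2.33 for Gdf15 to 2.89 for Slc7a11.

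Plasma cells and fibroblasts are rich in ER folding genes, so markers of other cell types were read beside the results. Of 11 B and plasma cell markers, 9 are listed, and 1 of the 2 tested rose; they summed to 65.1 and 63.9 CPM in M0 and to 201.3 and 163.9 CPM in M1. Sdc1 made up 59.4 and 59.3 CPM of this in M0 and 197.2 and 162.4 CPM in M1. Cd79b, the other marker tested, stood at 4.94 and 4.29 CPM in M0 and at 3.82 and 1.23 CPM in M1. Its log2 fold change was -0.87 and did not pass (adjusted p = 0.145, edgeR). The B cell marker Ms4a1 was at 0 in all 4 libraries, and Jchain and Mzb1, of plasma cells, did not exceed 0.288 CPM. The 9 stromal markers summed to 717.2 and 695.9 CPM in M0 and to 457.9 and 519.9 CPM in M1, with 3 that rose and 4 that fell. Among them Col3a1, Dcn and Pdgfrb rose, by 1.41 ± 0.22, 1.70 ± 0.34 and 0.96 ± 0.29 on the log2 scale. Lower in M1 were Pdgfra at -2.08 ± 0.69, Cxcl12 at -1.84 ± 0.30, Col1a1 at -0.61 ± 0.10 and Col1a2 at -0.57 ± 0.10. The 12 neutrophil markers summed to between 367.7 and 393.9 CPM in the 4 libraries, with 2 that rose and 9 that fell. Csf3r, which rose, made up 108.1 and 108.2 CPM of this in M0 and 232.6 and 246.2 CPM in M1. The median log2 fold change of these markers was -2.48. The 9 dendritic cell markers, mostly Itgax, of which 2 rose and 4 fell, summed to 193.5 and 171.3 CPM in M0 and to 68.7 and 76.8 CPM in M1. The erythroid and megakaryocyte markers, of which 8 of 11 are listed and 1 rose (Pf4, most of the sum), summed to 23.0 and 28.7 CPM in M0 and to 76.5 and 62.4 CPM in M1. The 9 T and NK cell markers did not exceed a summed 2.72 CPM, nor did the 3 listed of 6 mast cell and basophil markers exceed 1.16 CPM. Of these markers only 1, Lat of T and NK cells, passed the low-count filter and was tested. Lat was lower at an unadjusted p under 0.05 but did not pass after adjustment. The others were too low to be tested. The 8 macrophage markers, mostly Lyz2, summed to 20679.3 and 22987.0 CPM in M0 and to 29695.7 and 29209.3 CPM in M1. Of these Adgre1, Itgam, Cd14 and Fcgr1 rose, with log2 fold changes of 1.83, 2.02, 1.84 and 3.39, and Cd68 and Mertk fell, with -0.86 and -1.55. The part of these cell types in the changes of the members was not tested.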

How the data were processed

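The deposited files hold whole-number counts of reads per gene for each of the 4 libraries, which the authors made with featureCounts; the submitters' processing notes name Subread 2.0.1, DESeq2 1.30.1, R 4.0.4 and the mm10 build. The aligner, the annotation and the strand setting are not given in the sources used here, so reads of genes that overlap on opposite strands cannot be told apart. Here the counts were analysed with edgeR 4.0.16 in R 4.3.3: genes under edgeR's filter (a minimum count of 10, total of 15) were left out, libraries were scaled by TMM, and the groups were compared by the quasi-likelihood test, with 2 residual degrees of freedom and Benjamini-Hochberg adjustment. The SE is the absolute log2 fold change divided by the square root of F, and intervals are at 95%. Replicates of a group differed by more than counting noise (chi-square per degree of freedom 9.15 in M0 and 13.3 in M1). The steps were tested on simulated data. The members, the pathway and marker lists and the motifs were chosen with earlier results of these data known. All members are named, and of the pathway lists the up to 4 genes with the largest change in each direction among those past the threshold and at a mean of 10 CPM or more; Atf3, Pycr1, Vldlr and Canx were named after their values were seen. Promoter windows are RefSeq's (GRCm38.p6), gene positions and overlaps GENCODE M21's. Alternatives were relative log expression, upper-quartile and total-count scaling, DESeq2 1.42.0, limma 3.58.1 (voom), no filter and a stricter one, a replicate block, and each library left out.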

Additional observations from a re-analysis of the deposited data

How the results depend on the processing

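Of 396 values of the 33 tested members under 12 alternatives, 333 kept their direction and side of the threshold, 40 lost the call, 8 gained one and 15 changed sign, none of these last in a member called in the report. With libraries scaled by their totals, 2024 genes rose and 4776 fell (29.8% of calls higher), 14 members rose and 4 fell, 2 ATF4-type members fell, and the median log2 fold changes were 0.46 for the chaperone type and -0.39 for the ATF4 type. With upper-quartile factors 41% of calls were higher, 3 members and 1 ATF4-type member fell, and these medians were 0.61 and -0.24. In DESeq2 0 members fell, against 1 in edgeR, and 2 fell without the low-count filter. When 1 library was left out, between 1691 and 2966 genes rose and between 1463 and 2855 fell; between 13 and 21 members rose and 0 to 2 fell; between 12 and 18 chaperone-type members rose; and 0 to 1 ATF4-type members fell. The medians then lay between 0.72 and 0.79 for the chaperone type and between -0.10 and 0.02 for the ATF4 type, the latter changing sign without M1 replicate 2; the lowest counts of rising genes were without M0 replicate 1, and the cause was not tested. The sign changed for Sel1l with relative log expression factors (0.00066), for Sec61b with upper-quartile factors (-0.10), library totals (-0.25) and the stricter filter (-0.00042), for Ern1 with upper-quartile factors (-0.0025) and library totals (-0.15), and for Trib3 with library totals (-0.09). Leaving out 1 library at a time gave both signs for Sel1l (-0.11 to 0.11), Sec61b (-0.19 to 0.23), Ddit4 (-0.59 to 0.39) and Trib3 (-0.06 to 0.38). With a replicate block 2957 genes rose and 2974 fell, 20 members rose and 1 fell, Syvn1 and Edem1 not passing (adjusted p = 0.085 and 0.118); the labels say only that the groups share replicate numbers, and the deviations of same-numbered samples had a correlation of -0.0757. Alternatives for the counts of each role, of the other pathway lists and of their named genes were added after seeing the data. With 2 libraries per group, genes under about 10 CPM had wide intervals.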
